A study of Mus musculus with 10 samples.

Results

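The genes read as bright, dim or absent in normal mouse spleen were described from 3 wild-type samples among the 10 samples of the series. The 3 samples are splenocytes, the mixed cells released from the spleen, of wild-type mice of the FVB strain at 6 weeks of age, titled as control spleens 1 to 3 and called replicates 1, 2 and 3 here. None carried a transgene or received a treatment, as far as the labels say, and the other 7 samples, from mice with the CD22DE12 transgene, were not analysed. Total RNA of each sample was copied into 32P-labelled cDNA and hybridised to a nylon membrane that held 597 named genes as 2 spots each. For each gene the brightness of the surrounding ring was subtracted from that of the spot, the 2 spots were averaged, and the 597 values were ranked within each array, rank 1 being the brightest. Nothing states that the 3 membranes came from separate mice, so the spread given below is that between these samples.

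The spleen filters blood and houses mature B cells, T cells, macrophages and other myeloid cells, and in mice it also keeps a population of red-cell and platelet precursors. Resting lymphocytes are held in quiescence by transcription factors and by proteins that shorten messenger RNA life, while receptors for cytokines and antigen wait for a signal that starts division. Many cytokine and chemokine genes are transcribed in bulk only after such a signal, and most genes of nerve and epithelium stay silent in blood cells.

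Spot brightness depends on the length and amount of the spotted DNA and on how well it hybridises as well as on the RNA. Neither the length nor the sequence of the spotted DNA was given in the sources used here, and signal from near-identical relatives of a gene cannot be told apart. The order of genes is therefore an order of spots and not of messenger RNA abundance, and genes were not tested against each other. In a mixed tissue, fewer cells of a type and less RNA per cell cannot be told apart either.

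The values fell off steeply with rank. The median gene read 14.8, 16.5 and 13.4 grey levels on replicates 1, 2 and 3, and the brightest read 129, 133 and 133. The 20 brightest genes of each array carried 15.5%, 14.7% and 16.1% of the summed signal. At the dim end 7, 6 and 8 genes were no brighter than their own ring.

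**Figure D1:**
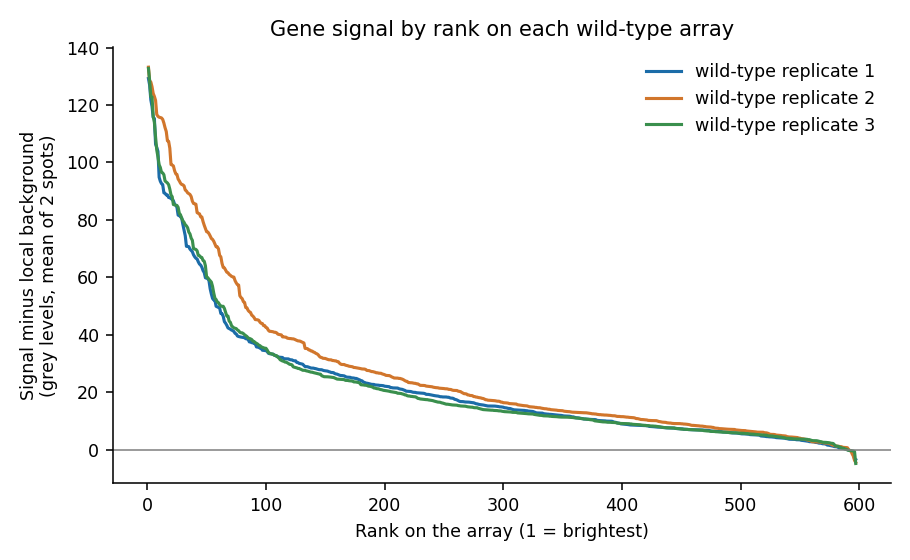
Signal minus local background in grey levels (vertical axis) against rank (horizontal axis, 1 is the brightest of 597 genes), with 1 line for each of the 3 wild-type arrays. The 3 curves start between 129 and 133 grey levels, pass medians of 13.4 to 16.5 and end just below 0.

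The deposited files give each spot a code, and a gene with the code 0 at 1 spot or both was counted as above background on that array. A gene was counted as absent when both spots carried the code 2 on all 3 arrays. By this count 462 of 597 genes, 77.4%, stood above background on all 3 arrays and 22 genes, 3.69%, were absent. With 2 arrays in place of 3 the absent genes numbered 32 without replicate 1, 38 without replicate 2 and 39 without replicate 3. The other 113 genes were above background on 1 array (43 genes) or on 2 (70 genes). Ranks 1 to 149 are called the bright band here and ranks 449 to 597 the dim band. A gene belonged to either only when it stood there on all 3 arrays, which held for 121 genes (20.3%) in the bright band and 81 genes (13.6%) in the dim band.

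The 20 brightest genes mixed lymphoid regulators with genes that every cell uses. Ptma, which encodes the small acidic nuclear protein prothymosin alpha, read 127, 128 and 114 grey levels and took ranks 2, 2 and 6. Tgfb1, the cytokine that restrains lymphocyte division, read 115, 128 and 133 at ranks 6, 3 and 1. Both lay within the first 6 ranks on each of the 3 arrays. Ybx1, a cold-shock protein that binds DNA and RNA, was brightest of all on replicate 2 with 133 grey levels but read 90.7 on replicate 3, where it stood at rank 19. Klf2, a Kruppel-like factor that keeps naive T cells quiescent and circulating, led replicate 1 with 129 grey levels and read 104.97 and 123 on the other arrays. Zfp36l1, which binds AU-rich messenger RNA and speeds its decay, read 106, 124 and 129 at ranks 7, 5 and 2.

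Next in order came Ttf1, which ends transcription by RNA polymerase I and read 116, 111 and 123 grey levels. The glycolytic enzyme gene Gapdh read 89.4, 126 and 116, and Gpi1, of the same pathway, 88.7, 116 and 99.2. Ikzf1, the Ikaros zinc finger factor needed for lymphoid development, read 105.2, 117 and 93.2 and stayed between ranks 8 and 16. Its values overlapped those of Hsp90ab1, the constitutive HSP90 chaperone, at 104, 123 and 92.3. The paired gene Hsp90aa1 read 120, 108 and 96.6. Within the 20, genes set next to each other in order had values that overlapped between arrays, so their order is not resolved by these samples.

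A receptor gene and a kinase gene of immune cells stood in the same range. Csf2ra, the alpha chain of the GM-CSF receptor, read 93.5, 114 and 102 grey levels. The entry printed as Syk, the kinase that acts directly below the B cell receptor, read 92.3, 116 and 104; its printed name also mentions another kinase, ack. The 13 genes from Ptma to Syk by median rank stood among the first 20 on all 3 arrays. The remaining 7 left the first 20 on at least 1 array, and the lowest single rank among them was 62, that of the SMAD co-repressor Ski on replicate 3.

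Those 7 were Ezr, Rad23b, Klf3, Satb1, Pik3r1, Ski and Abl1. Ezr, which ties the cell membrane to actin, read 92.6, 116 and 65.9 grey levels. Rad23b, a partner of the damage sensor of nucleotide excision repair, read 87.1, 116 and 95.7, and Klf3, a repressor of the Kruppel-like family, 85.5, 115 and 93.6. Satb1, a chromatin organiser of T cells, read 86.7, 112 and 92.9, and the phosphoinositide 3-kinase subunit gene Pik3r1 87.8, 85.7 and 96.4. Ski read 89.3, 107.4 and 49.99, and the tyrosine kinase gene Abl1 88.7, 98.8 and 65.6. Ezr, Ski and Abl1 were each dimmest on replicate 3. In all, 28 genes entered the first 20 on at least 1 array.

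**Figure D2:**
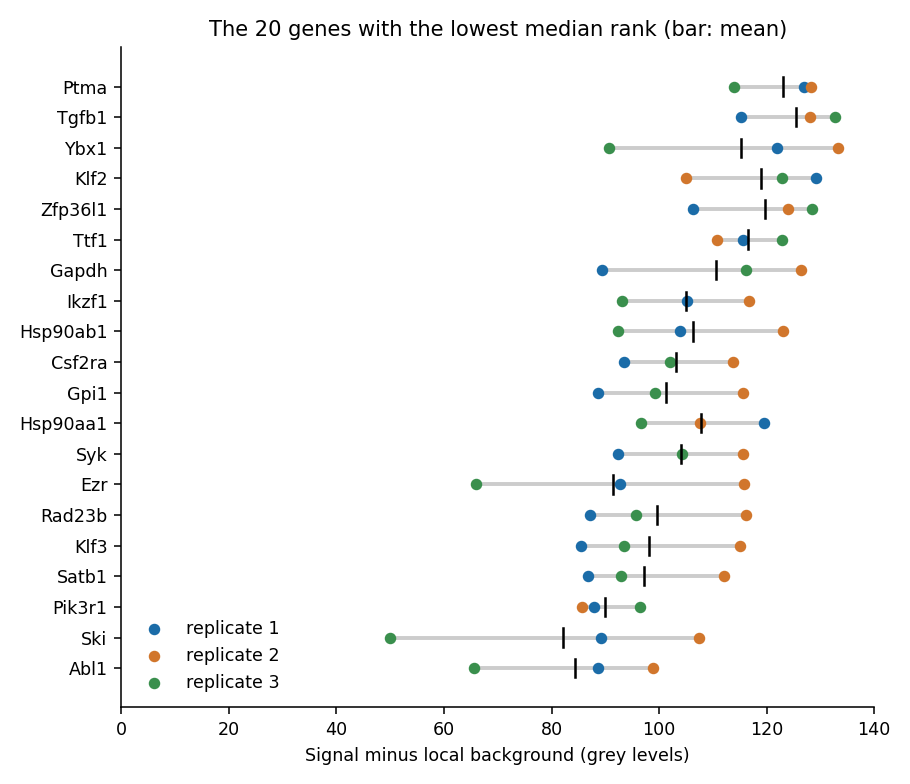
Signal minus local background in grey levels (horizontal axis) of the 20 genes with the lowest median rank, in that order from the top, with a point for each wild-type array, a grey line over their range and a black bar at the mean. Means run from 82.2 to 125 grey levels, and the ranges of neighbouring genes overlap.

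Transcription factors and RNA regulators of lymphoid and blood cells formed the brightest of the larger lists. Of its 16 measured genes all 16 were above background on all 3 arrays and 11 stood in the bright band. Their median rank was 35.5, against 303 over all 597 genes. After Klf2, Zfp36l1, Ikzf1, Klf3 and Satb1 in this list came Pax5, described with the B cell genes. The Kruppel-like family itself was spread over the whole scale: Klf2 and Klf3 had median ranks of 4 and 15, and the red-cell factor Klf1 of 152. Klf4, known from epithelium and monocytes, read -0.34, 2.52 and -4.82 grey levels and had a median rank of 593. Klf1 read 25.4 on replicates 1 and 3 and 64.8 on replicate 2, where it stood at rank 63.

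The label of splenocytes was checked against genes of B and T cells, with the reservation that 77.4% of all genes were above background, so detection alone does not mark a cell type. Of the 17 genes on the B cell list 6 were spotted, all 6 were above background on all 3 arrays, and 4 stood in the bright band, with a median rank of 85. The spot of Pax5, the factor that fixes B cell identity, read 78.4, 79.4 and 109 grey levels above its ring. Cd22, the inhibitory co-receptor of B cells after which the transgene of the study is named, read 81.7, 70.6 and 69.9, or 74.1 ± 6.60 (SD, n = 3). Cd22 took ranks 26, 59 and 40, so it was bright on every array without reaching the first 20.

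Blk, a Src-family kinase of B cells, read 49.5, 60.1 and 67.6 grey levels. The early B cell factor Ebf1 read 28.4, 40.7 and 32.2, and Pou2af1, the co-activator of octamer factors in B cells, 31.7, 29.7 and 28.5. Cd40, which receives help from T cells, was the dimmest of the 6 at 25.9, 29.3 and 30.5. Even so its lowest value lay above the median gene of every array.

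T cell genes were all detected but lay lower in the order. The 9 spotted genes of the T cell list were above background on all 3 arrays, 2 stood in the bright band, and the median rank was 254. Beside Satb1, the adhesion receptor gene Cd2 read 44.03, 53.6 and 44.8 grey levels. Cd3d, a chain of the T cell receptor complex, read 24.97, 31.8 and 26.3, and the kinase gene Lck 26.8, 33.98 and 25.2. Cd4 read 14.6, 25.3 and 15.8. The values of Cd3d and Lck overlapped, while all 3 of Cd2 lay above both.

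The myeloid list was split. Of its 10 spotted genes 8 were above background on all 3 arrays, 3 stood in the bright band and 2 in the dim band, with a median rank of 280. Over all genes these shares were 77.4%, 20.3% and 13.6%. Beside Csf2ra, the receptor gene Csf1r, which macrophages need to survive, read 85.1, 122 and 85.3 grey levels. Cd14, the lipopolysaccharide co-receptor, read 37.0, 38.2 and 27.4. The kinase gene Fes read 24.7, 18.1 and 20.5, and the neutrophil chemokine receptor gene Cxcr2 19.7, 18.9 and 14.04. Itgam, the integrin chain of macrophages and granulocytes, read 22.5, 14.4 and 5.53 at ranks 194, 333 and 507. Prtn3, a protease gene of immature granulocytes, was absent, although it was not on the myeloid list. Its brightest neighbour on the membrane was Ptma, and its median rank was 571, and 370 without subtraction.

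Markers of other cells that a spleen suspension can hold were read as well. With 77.4% of all genes above background, their detection does not show that those cells were present. All 4 spotted erythroid genes were above background on all 3 arrays, at a median rank of 137. Of these 1 stood in the bright band, beside 20.3% of all genes. The erythropoietin receptor gene Epor read 33.4, 38.7 and 19.98 grey levels, and the factor Nfe2 32.1, 37.5 and 29.5. The transferrin receptor gene Tfrc read 22.7, 26.6 and 23.4. The globin genes of the list were not among the spotted genes.

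Of the 8 endothelial and stromal genes all 8 were above background on all 3 arrays. Pecam1, which platelets and leukocytes also carry, was the brightest of them at 40.5, 73.2 and 51.4 grey levels. The vascular receptor gene Flt1 read 27.9, 31.3 and 21.5, and the adhesion gene Vcam1 25.2, 28.4 and 24. Among cytotoxic genes Gzmc read 20.1, 29.6 and 24.4, Fasl 17.8, 22.4 and 24.9 and Gzmb 5.82, 4.94 and 4.15. Both spots of Gzmb carried the code 2 on replicates 2 and 3. On the megakaryocyte list the thrombin receptor gene F2r read 26.9, 39.3 and 35.3. No gene of the plasma cell list was matched by symbol, although an unmatched entry carries CD38 in its printed name.

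**Figure D3:**
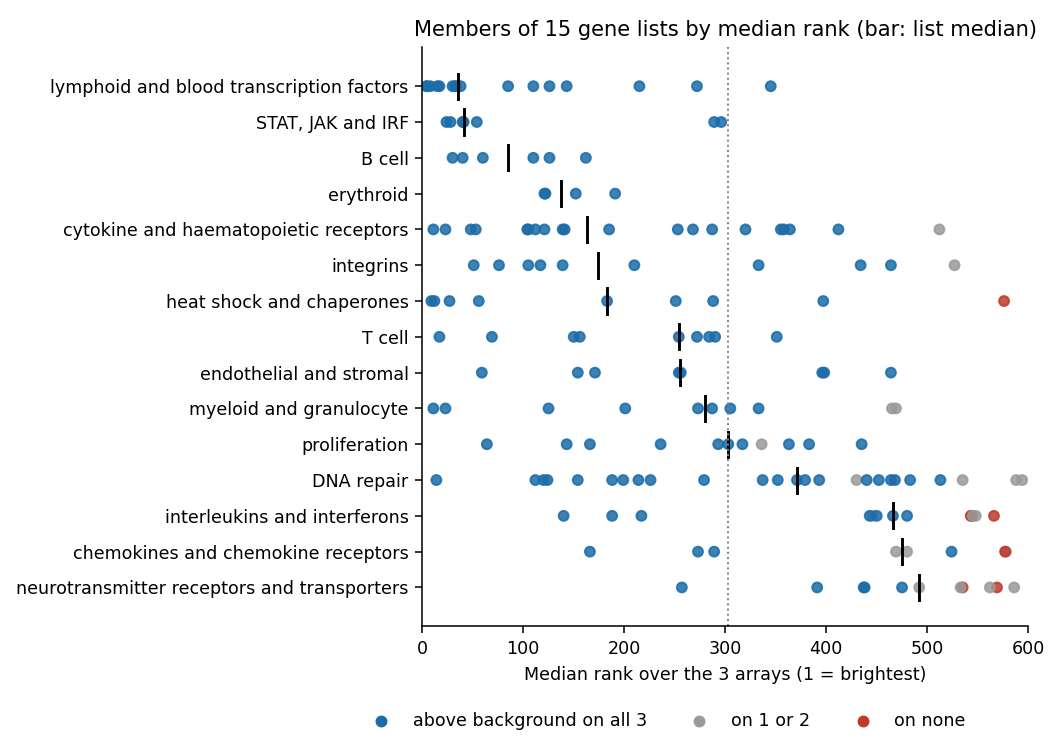
Median rank over the 3 wild-type arrays (horizontal axis, 1 is the brightest) of each spotted member of 15 gene lists (rows), coloured by whether it was above background on all 3 arrays, on 1 or 2, or on none. Black bars are list medians, which run from 35.5 for lymphoid and blood transcription factors to 492 for neurotransmitter receptors and transporters; the dotted line marks the median of all genes, 303.

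Signal transducers of cytokine receptors were bright. Of 7 spotted STAT, JAK and IRF genes all 7 were above background, 5 stood in the bright band and the median rank was 41. Jak3, the kinase bound to the common gamma chain, read 81.1, 94.3 and 80.6 grey levels and held ranks 28, 26 and 29. Stat6, which carries the interleukin 4 signal, read 67.1, 88.1 and 69.2. The interferon regulatory factor genes Irf2 and Irf1 read 80.7, 85.5 and 58.4, and 52.1, 73.5 and 67.03. Stat5a and Stat3 lay far lower, with means of 14.4 ± 3.35 and 16.2 ± 4.38 (SD, n = 3), and their 3 values did not overlap those of Stat6.

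Src-family kinases and their partners in antigen receptor signalling were measured with 13 genes, of which 12 were above background on all 3 arrays and 4 in the bright band. After Syk, Abl1 and Blk came Csk, which holds Src-family kinases in check, at 34.6, 48.5 and 49.9 grey levels. Vav1, an exchange factor that links antigen receptors to the cytoskeleton, read 38.6, 45.3 and 24.7. Of 13 genes of the MAP kinase cascade 10 were above background and 3 in the bright band, near the 77.4% and 20.3% of all genes. Map2k6, Mapk3 and Mapk10 were not above background on all 3 arrays. The stress kinase gene Mapk14 read 70.7, 90.4 and 85.04, Braf 47.4, 92.3 and 77.9, and Map2k1 63.5, 52.6 and 46.5. Protein kinase C delta, Prkcd, read 74.5, 74.4 and 60.1.

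All 5 spotted NF-kB genes matched to a symbol were above background. Rela, the activating subunit, read 58.9, 75.2 and 43.2 grey levels, and the inhibitor gene Nfkbia 28.9, 33.5 and 26.5. Rel, Nfkb1 and Relb followed at median ranks of 221, 275 and 326. Every value of Rela lay above every value of these other 4 genes. Another entry, whose printed name gives both IKB-beta and NFKBIA, had a median rank of 367, against 142 for Nfkbia. It was not matched to a symbol, so it was not among the 5.

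By list median, receptors for cytokines ranked above the list of interleukins and interferons, but single genes overlapped. Flt3l of the latter list had a median rank of 140, and the receptor gene Il1r2 of 512. The cytokine genes Tgfb1 and Lta, on neither list, had median ranks of 3 and 128. Of 20 spotted receptor genes 19 were above background on all 3 arrays, 8 stood in the bright band and none was absent, with a median rank of 163. Besides Csf2ra and Csf1r these included Il2rg, the common gamma chain, at 37.5, 78.1 and 88.1 grey levels. Il6st, the shared signalling chain for interleukin 6, read 56.03, 81.03 and 52.7, and Il7r, which sustains naive lymphocytes, 30.3, 41.2 and 41.4. Il2rg was dimmest on replicate 1, as was Il7r.

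The list of interleukins and interferons had 13 spotted genes, all of them interleukin or growth factor genes and not interferons. Of these 7 were above background on all 3 arrays. None stood in the bright band, 5 stood in the dim band and 3 were absent, with a median rank of 466. Flt3l, which drives dendritic cell growth, read 28.4, 31.6 and 31.9 grey levels, Csf1 26.9, 27.4 and 19.6, and Lif 24.3, 12.8 and 19.1. Il11 and Il7 had median ranks of 443 and 446. The absent 3 were Il4, which directs helper T cells and B cell class switching, Il10, which damps inflammation, and Il12b, a chain of interleukin 12. Il4 read 5.98, 4.39 and -0.43, Il10 3.16, 4.36 and 5.17, and Il12b 2.28, 0.79 and 3.13. Because the receptors and the cytokines are different spots, the gap between the lists describes these membranes and was not tested.

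The spotted chemokine genes on the chemokine list were dim too, while most receptor genes on it were not. Cxcl9, a chemokine gene that was spotted but not on the list, had a median rank of 132. Ccl7, Ccl3, Cxcl2 and Ccl4 had median ranks of 480, 524, 577 and 578. The receptor genes Ccr2, Cxcr2 and Cxcr4 had median ranks of 166, 273 and 289, against 303 over all genes, and Ccr1 of 469. Of the 8 spotted genes on the list 4 were above background on all 3 arrays and 4 stood in the dim band. The receptor gene Ccr2, which brings monocytes out of the marrow, read 24.9, 29.6 and 25.6 grey levels, and Cxcr4, the receptor for stromal chemokine, 15.2, 18.02 and 9.14. Ccr1 read 1.07, 8.09 and 6.84 and Ccl7 6.35, 4.01 and 9.08. Cxcl2, which attracts neutrophils, was absent at 1.304, 1.034 and 5.96.

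Among integrins the leukocyte pair LFA-1 had the lowest median ranks, 51 and 76. Of 10 spotted integrin genes 9 were above background. The bright band held 3, namely Itgal, Itgb1 and Itga4. Itgal, the alpha chain of LFA-1, read 76.5, 75.8 and 54.6 grey levels, and its partner Itgb2 39.6, 62.5 and 23.9. On replicate 3 Itgb2 lay below Itgb1, Itga4 and Itga6, and it was not in the bright band. Itgb1, which pairs with many alpha chains, read 33.3, 40.9 and 38.6. Itga4 and Itga6 read 33.6, 39.2 and 27.9, and 24.8, 35.3 and 26.98.

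Chaperones were divided between some of the brightest genes and an absent one. Of 9 spotted genes 8 were above background and 4 in the bright band. After the HSP90 pair, Dnajc3, a chaperone of the endoplasmic reticulum, read 81.5, 82.5 and 88.7 grey levels. Serpinh1, the collagen chaperone, read 35.3, 72.6 and 84.4, and Hspa5, the main HSP70 of the endoplasmic reticulum, 23.2, 31.4 and 22.5. Hspb1, a small heat shock protein gene, was absent at 1.40, 0.81 and 2.47. Dnajc3 varied by 3.87 grey levels (SD, n = 3), Serpinh1 by 25.6.

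Division and repair genes lay near or below the middle. Of 11 proliferation genes 10 were above background and 1, the mitotic cyclin gene Ccnb1, stood in the bright band at 49.3, 63.5 and 40.9 grey levels. The median rank of the list was 303, that of all genes. Myb, a factor of dividing progenitors, read 28.1, 49.5 and 25.3, and E2f5 26.5, 28.2 and 24.4. On the side of arrest, the list of cell cycle inhibitors and the p53-Rb axis had 12 spotted genes at a median rank of 253. Of these 10 were above background on all 3 arrays and 2 stood in the bright band, beside 77.4% and 20.3% of all genes. The 2 were the retinoblastoma gene Rb1, at 52.7, 69.9 and 42.3, and Cdkn1b, an inhibitor of cyclin-dependent kinases, at 43.3, 58.04 and 28.04. The inhibitor gene Cdkn1a was the dimmest of the 12, at a median rank of 567.

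DNA repair was measured with 25 genes, of which 21 were above background, 1 in the bright band and 5 in the dim band, at a median rank of 371. The bright-band gene was Rad23b. Brca2 and Atm, both needed after double-strand breaks, read 34.6, 40.02 and 24.09, and 26.4, 41.6 and 29.7. The excision nuclease gene Ercc5 read 37.2, 38.4 and 23.9.

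Genes of cell death spanned much of the scale. Of 9 spotted genes of the Bcl2 group 7 were above background, beside 77.4% of all genes, and 3 stood in the bright band. Bid and Bax, which promote death, read 40.3, 49.4 and 40.4, and 31.3, 43.2 and 35.6 grey levels. Bcl2, which protects lymphocytes, read 12.4, 31.0 and 33.6 at ranks 337, 156 and 103. All 11 genes of the death receptor and caspase list were above background. The tumour necrosis factor receptor gene Tnfrsf1b read 59.5, 92.8 and 75.8, Casp1 32.5, 46.5 and 38.8, and the adaptor kinase gene Ripk1 35.3, 41.2 and 38.7.

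Developmental regulators other than Pax5 were mostly dim. Of 18 homeobox genes 12 were above background, 4 stood in the bright band and 4 in the dim band, with a median rank of 363. Cdx1, known as an intestinal factor, read 31.7, 42.6 and 35.5 grey levels. Hoxc8 and Hoxd3 read 29.96, 38.6 and 26.7, and 31.0, 33.9 and 25.1. Pax6, a factor of eye and brain, was absent by the spot code. Its brightest neighbour on the membrane was Pax5, at 235 grey levels before subtraction. Without subtraction the median rank of Pax6 was 226 and not 541, so its absence cannot be told apart from the bright surroundings.

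Among 15 genes of the TGF-beta and BMP group only Tgfb1 stood in the bright band. The next, Smad2, which relays the TGF-beta signal, read 29.8, 29.1 and 23.9 grey levels, and Bmp7 was absent. The 4 fibroblast growth factor genes Fgf9, Fgf8, Fgf7 and Fgf4 had median ranks of 459, 482, 494 and 530, and none was above background on all 3 arrays. Their mean signals ran from 4.65 to 7.11.

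Genes of nerve cells formed the dimmest of the larger lists. Of 11 neurotransmitter receptor and transporter genes 5 were above background on all 3 arrays, none stood in the bright band, 5 stood in the dim band and 2 were absent, at a median rank of 492. Gria1, a glutamate receptor subunit gene, was the brightest of the 11 at 17.9, 18.5 and 16.6 grey levels. Htr7 read 5.11, 12.9 and 7.66. The absent serotonin receptor genes Htr2c and Htr3a read 0.18, 3.13 and 2.58, and 4.74, 1.21 and 4.29. Htr7 was the brightest of these 3 on every array. By printed name 7 serotonin receptor entries were spotted, of which 4 were above background on all 3 arrays and 2 absent. The brightest of the 7, printed as receptor 1e beta, read 20.3, 17.4 and 17.5, and an entry printed as glutamate receptor channel subunit gamma read 19.2, 20.98 and 17.2. Neither was matched to a symbol, so neither was among the 11.

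Besides those already named, the 22 absent genes comprised the neuropeptide gene Tac1, the adenosine receptor gene Adora1, the transporter printed as GABA-A transporter 3, the vesicle gene Rab3b and the neural catenin gene Ctnna2. The neural transcription factor genes Pou3f1 and Sox3, the retinoic acid binder Crabp2 and the keratin gene Krt19 were absent as well. So were the stress-induced factor genes Atf3 and Atf4 and the calcium-binding protein gene Sdf4. Sox3, whose brightest neighbour on the membrane was Klf2, had a median rank of 575, and of 419 without subtraction. Single values of the 22 ran from -3.76 to 8.18 grey levels, with a median of the means of 2.67. None lay at or below its ring on all 3 arrays, and 4 did so on at least 1.

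Absence by the spot code is not the same as no signal. Over all genes limma, a linear model that borrows the spread across genes, tested the log2 ratio of spot to ring against 0 over the 3 arrays. It called 566 of 597 genes, 94.8%, brighter than their ring at the 0.05 threshold after Benjamini-Hochberg adjustment. It called 0 dimmer, and 0 were dimmer at an unadjusted p of 0.05. All 462 genes above background by code were among the 566, and so were 7 of the 22 absent genes, namely Tac1, Atf4, Crabp2, Atf3, Htr3a, Il4 and Il10. Atf3 had a log2 ratio of 0.19 (SE 0.07) with a limma adjusted p of 0.0107, above its ring on 3 of 3 arrays. Cd22 had a log2 ratio of 1.22 (SE 0.07) with a limma adjusted p of 7.44e-22. The median over the 22 absent genes was 0.11 and over all genes 0.49.

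Rings were not dark around bright spots. Spot and ring brightness followed each other across genes within each array, with Spearman correlations of 0.876, 0.888 and 0.865 over 597 genes, which share the membrane and are not independent replicates. The median ring of the 20 brightest genes was 60.5, 73.5 and 68.4 grey levels on the 3 arrays, against 32.0, 40.2 and 39.5 for all genes. The brightest neighbouring spots of the same 20 genes had a median of 104 grey levels before subtraction, against 107.5 for all genes.

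The image also had a ceiling, and the ranks of the genes at it depended on the subtraction. No spot exceeded 244 grey levels before subtraction, and 6 genes read at least 200 on all 3 arrays. These were Pax5, Ttf1, Klf2, Actb, Rps29 and the entry printed as ubiquitin. Pax5 read 233, 234 and 236 before subtraction with rings of 155, 155 and 128. By spot brightness without subtraction its median rank was 4 and not 30. When the spot was divided by its ring it was 249.

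The common control genes showed the same limit more plainly. The membrane carries 9 of them outside the main field, of which 6 were above background on all 3 arrays. Actb, the cytoskeletal actin gene, read 235, 236 and 235 grey levels before subtraction inside rings of 188, 224 and 210. Only 46.4, 12.5 and 25.2 were left after subtraction, at ranks 64, 376 and 155. Rps29, a ribosomal protein gene, kept 62.3, 28.6 and 3.60, and ubiquitin -3.49, 17.2 and 19.9. Before subtraction the median ranks of Actb, Rps29 and ubiquitin were 3, 3 and 1. Sdf4, counted as absent, lay in rings of 65.4, 104 and 152, so its absence cannot be told apart from the bright surroundings.

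The other control genes were not at the ceiling on all arrays. The entry printed as phospholipase A2, next to ubiquitin, read 64.3, 99.3 and 75.1 grey levels above rings of 67.3, 88.4 and 130. Odc1, of polyamine synthesis, read 27.9, 41.1 and 22.5, the salvage enzyme gene Hprt 8.38, 15.5 and 15.5, and the entry myosin I 10.1, 11.2 and 8.80. In all, 9 genes had a ring above 100 grey levels at a spot on at least 1 array: Klf2, Zfp36l1 and phospholipase A2 besides Ttf1, Pax5, Actb, Rps29, ubiquitin and Sdf4. The highest ring of Zfp36l1 was 102 and that of Klf2 137, both on replicate 2.

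**Figure D4:**
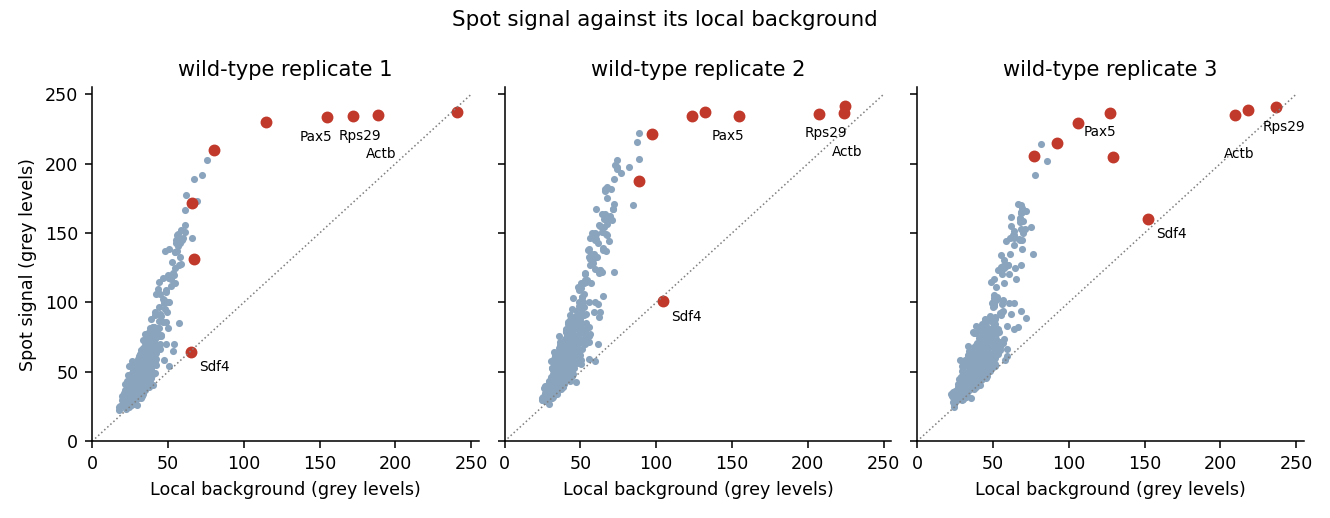
Spot signal (vertical axis) against the local background ring (horizontal axis), both in grey levels before subtraction, for 597 genes on each wild-type array; the dotted line marks equal brightness and red points are the 9 genes with a ring above 100 at a spot on any array. Signals flatten near 240, where Pax5, Actb and Rps29 lie, and Sdf4 lies near the line.

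The 3 arrays ordered the genes alike over the whole scale. Spearman correlations over 597 genes were 0.912 between replicates 1 and 2, 0.861 between 1 and 3 and 0.889 between 2 and 3. Over the 135 genes not above background on all 3 arrays they were 0.168, 0.0137 and 0.155, in a group that the codes themselves had set apart. The arrays shared 15, 14 and 16 of their 20 brightest genes.

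A few genes above background by code on all 3 arrays changed place widely, and several of them fell within the range of the absent genes on at least 1 array. Rps29 had the widest range, from rank 47 to 556, at the ceiling described above. Itgam came next, and then Gdnf, a neurotrophic factor gene, which read 5.11, 7.1 and 17.3 grey levels. Ace, the angiotensin-converting enzyme gene, read 23.5, 20.3 and 7.61, and the serotonin receptor gene Htr1b 19.8, 7.43 and 6.36. The glutamate receptor gene Grin2b read 13.4, 9.36 and 2.41, and the kinase gene Src 6.92, 23.4 and 17.03. Itga3 and Igfbp4 read 15.2, 9.58 and 4.61, and 23.98, 32.2 and 10.4. With Bcl2 these made up the 10 genes with the widest ranges, 229 ranks or more. On 7 of them replicate 3 was the lowest array.

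**Figure D5:**
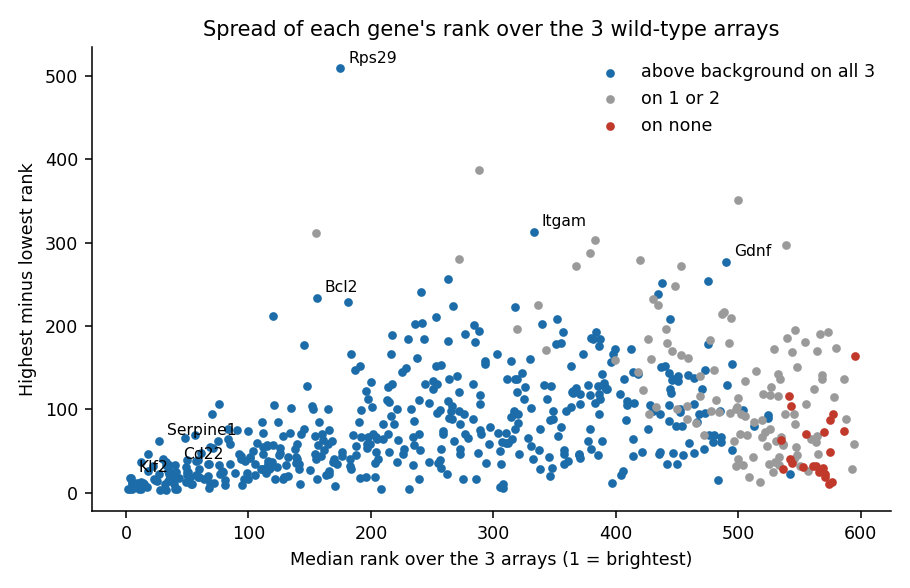
Highest minus lowest rank over the 3 wild-type arrays (vertical axis) against median rank (horizontal axis) for 597 genes, coloured by the number of arrays on which the gene was above background. Cd22 and Klf2 lie among the bright genes with narrow ranges, and Rps29, Itgam, Gdnf and Bcl2 stand above the cloud.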

How the data were processed

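The members and the gene lists were chosen with earlier results of these data known. The deposited intensity values are, per the file headers, mean grey levels of each spot and of the ring around it, read from an inverted image by automatic segmentation without normalization. The sources used here do not say what the spot codes 0 and 2 mean, or how the image was exposed. The authors also deposited processed values, a score of unstated scale, for 588 entries that could not be matched to genes; only counts were taken from its 3 wild-type columns, and 7 other sample columns were not used.

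Ring was subtracted from spot, the 2 spots of a gene were averaged, and genes were ranked within each array, with no normalization between arrays. The 126 spots without a gene name were left out of the ranks. Of 597 printed names 560 were matched by hand to a mouse symbol found in the RefSeq table of GRCm38.p6, used for names alone. The other 37 kept the printed name and entered no list or family by symbol, so those counts cover matched entries alone. Named genes were the 20 with the lowest median rank, up to 5 of the brightest and of the absent members of each list or family described, the 10 with the widest rank range among those above background on all 3 arrays, the other absent genes, Cd22, the control genes and those with rings above 100 grey levels. Families are genes whose symbols share the letters before the first digit or dash, with at least 4 spotted. Of 45 lists written, 42 had at least 2 spotted genes, and not every list is described. Some further genes and entries were named where they limit what a list shows.

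Spot was tested against ring with limma 3.58.1 in R 4.3.3 (intercept only, moderated, two-sided, Benjamini-Hochberg over 597 genes), after a test on simulated data. The number of arrays, 3, limits the precision. Counts and ranks used Python 3.11.15 and pandas 2.3.3. Alternatives were other background treatments (none, 1 value per array, normexp with an offset of 50, division), the lower of the 2 spots, other rules for absence, leaving out genes with bright rings and leaving out each array. Genes with bright rings left out of the counts above background and absent, and the processed values, were added after seeing the data. Some items are not reported here.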

Additional observations from a re-analysis of the deposited data

Results flagged for a closer look

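Spots without a gene name carried signal. Of 126 such spots on each membrane, 92 had the code 0 on all 3 wild-type arrays, and the medians of the 126 lay between 21.6 and 26.99 grey levels above their rings, above the median gene of each array. The sources used here do not say which DNA these spots hold, so they were not used as blanks in the ranking.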

How the results depend on the processing

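The counts of genes above background, in the bright band, in the dim band and brighter than their ring by limma stayed within 1.5 times the reported count under every alternative run. Above background ran from 323 (both spots of code 0) to 566 (limma), and from 480 to 491 when an array was left out. The number absent did not hold: it was 65 with both spots of code 2 on at least 2 arrays, 0 at or below the ring on all 3, 350 at or below the median unnamed spot and 65 at the lowest of the authors' processed values. Without replicate 1, 2 or 3 it was 32, 38 and 39. The bright band held 112 to 122 genes, and 126 to 134 with an array left out; the dim band 75 to 94, and 98 to 110. Of the 81 dim-band genes 52 remained without subtraction. Of the 20 brightest genes 15 remained without subtraction and 15 under division, 20 under normexp and 17 to 18 with an array left out. Subtracting 1 value per array gives the same ranks as no subtraction. Limma called 527 to 546 genes with an array left out, 544 with the offset and 570 with a trended robust prior. Among 261 genes that the naming rule allowed, the median rank moved by over 1 SD for 111 without subtraction, 91 under division and 32 with the lower spot. Of 63 lists and families the count in the bright band moved by over 1.5 times for 9 without subtraction and 9 under division. Without subtraction the DNA repair list had 3 genes there and the proliferation list 2, and under division the homeobox list had 2. The cause of these shifts was not tested. No paired analysis was possible because only 1 group is described.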
